A study of Ambystoma mexicanum with 20 samples.

Results

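The comparison described here set the epidermis against the underlying soft tissue (ST) of axolotl forelimbs at 3 days post-amputation (dpa) in control animals. It took 4 of the 20 RNA sequencing samples of the series, 2 of the epidermis and 2 of ST, as named by their labels. The series profiled both tissues of juvenile Ambystoma mexicanum at 0 dpa, and at 3 and 8 dpa in limbs given MS-275, an inhibitor of class I histone deacetylases, or its vehicle DMSO. All 4 samples came from limbs injected with DMSO, and each pooled tissue from the most distal stretch of the limbs of a pair of animals. The labels call the first tissue wound epidermis. At 3 dpa, the wound healing stage, it covers the amputation plane, and ST is the soft tissue from which it was separated. As each sample mixes all cells of a tissue from a pair of animals, it gives no value for a single animal or cell type.

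After a limb of a salamander is cut, epidermal cells migrate over the wound and form the wound epidermis, which has no dermis beneath it and exchanges signals with the stump. The stump below loses muscle and matrix structure while leukocytes enter, and connective tissue cells of the stump later contribute to the blastema, the mound of progenitor cells from which the limb regrows. The blastema forms after the stage sampled here.

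Expression was given by the authors in TPM, the share of a transcript among all transcripts of a sample after correction for length. The table held 180605 transcripts, of which 107026 were tested, namely those detected above 0 TPM by 5 or more of all 20 samples. Between 77035 and 87030 transcripts were above 0 in the 4 samples, and between 72566 and 92979 in all 20. TPM carry no depth, so counting error is unknown. Differences are given as epidermis minus ST of log2(TPM + 0.1), so a negative value is higher in ST, and changes of low genes are understated. A transcript was called at a Benjamini-Hochberg adjusted p under 0.05 in limma, fitted to all 20 samples. The median difference of all transcripts tested was -0.14, which rescaling the TPM by median ratios moved to 0.0.

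Many transcripts separated the tissues. Of the transcripts tested, 12938 were called, or 12.1%, with 5599 (5.23%) higher in the epidermis and 7339 (6.86%) higher in ST. With rescaled TPM the split turned round, to 7410 higher in the epidermis and 5548 higher in ST. Differences above 10-fold were more common toward the epidermis, with 2259 called transcripts against 1045 toward ST. A further description of restricted expression is that 514 transcripts had at least 1 TPM in both epidermis samples and were listed at 0 in both ST samples, and 176 showed the reverse. Across all transcripts tested, the 2 epidermis samples had a Pearson correlation of 0.887, the 2 ST samples of 0.865, and the 4 cross-tissue pairs of 0.723 to 0.778.

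Gene symbols were known for a part of the transcripts only, namely those in the shortened lists of the study's own calls over time. These pair 4739 transcripts with 3505 symbols, so named genes are a selected set. Taking the most abundant transcript of each symbol, 1466 symbols (41.8%) were called, 380 (10.8%) higher in the epidermis and 1086 (31.0%) higher in ST, with a median difference of -0.48. The counts of the gene lists below are to be read against these shares.

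Keratins, the intermediate filament proteins of epithelial cells, were far higher in the epidermis. Of 14 keratin symbols, 13 were higher in the epidermis and 0 in ST (median difference 7.17). KRT17, a keratin of activated and wounded epidermis, had 369 and 579 TPM in the epidermis and 0.44 and 0.44 TPM in ST. The difference was 9.74 ± 0.69 (log2 difference ± SE, 2 samples per tissue) with an adjusted p of 2.3e-06. Each SE comes from the limma fit to all 20 samples, so it is not the spread of the 4 samples alone. KRT5, a basal keratin, had 90.3 and 77.99 TPM in the epidermis and was listed at 0 in both ST samples (adjusted p = 1.2e-05). No keratin overlapped between the tissues in these 4 samples. Overlap was not counted over all symbols, so this is not read as a result about keratins. In bulk tissue, fewer cells of a type and less RNA per cell cannot be told apart.

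Other keratins reached much higher levels. KRT10, known from suprabasal cells, had 809 and 1792 TPM in the epidermis and 0.61 and 11.02 TPM in ST (8.74 ± 0.88, adjusted p = 2.1e-05), and XK81B2, a larval type keratin named after Xenopus, had 1067 and 1952 against 3.31 and 13 TPM. KRT42 had 502 and 1275 TPM in the epidermis and 1.17 and 4.82 TPM in ST. KRT12 had 324 and 552 against 0.45 and 3.32 TPM, and KRT4, listed at 0 in both ST samples, had 40.2 and 55.2 TPM. In each of KRT10, XK81B2, KRT42 and KRT12 the second ST sample was above the first. The summed TPM of all transcripts paired with the keratin symbols were 5959 and 12267 in the epidermis and 35.0 and 156 in ST, so that the mean of ST was 1.05% of that of the epidermis. Their part in other differences was not tested. KRT8, a keratin of simple epithelia, was the 1 member not called (difference 2.77 ± 0.89, adjusted p = 0.061).

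The regulators and junctions of a stratified epithelium followed the keratins. Of 30 genes for cornification, cell junctions and epidermal regulation, 21 were higher in the epidermis and 2 higher in ST, with a median difference of 3.08. TP63, the transcription factor that maintains basal epidermal cells, had 5.65 and 9.04 TPM in the epidermis and was listed at 0 in both ST samples (adjusted p = 6.2e-06). ESRP2, an epithelial splicing regulator, had 6.6 and 12.6 TPM and POF1B, an actin-binding protein of epithelia, 7.98 and 12.97 TPM in the epidermis, and both were listed at 0 in both ST samples (adjusted p = 3e-06 and 2.5e-06). Each of these separated the tissues with no overlap, which adds no evidence where a gene was picked by its adjusted p.

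Junction genes were present in ST at trace levels. DSP, which anchors keratin filaments to desmosomes, had 16.6 and 22.2 TPM in the epidermis and 0.25 and 0.47 TPM in ST (5.43 ± 0.33, adjusted p = 9.4e-07). The tight junction gene CLDN1 had 11.9 and 13.7 TPM against 0.13 and 0.27 TPM (5.47 ± 0.26, adjusted p = 4e-07), the smallest adjusted p among the named genes. CDH1, the gene for E-cadherin, did not follow this pattern, with 35.9 and 70.04 TPM in the epidermis and 41.3 and 39.5 TPM in ST, and these values overlapped (0.31 ± 0.26, adjusted p = 0.56). CNFN, cornifelin, and EPHX3, an epoxide hydrolase of the skin barrier, were the 2 members higher in ST. CNFN had 80.9 and 68.6 TPM in the epidermis and 202 and 213 TPM in ST (-1.48 ± 0.26, adjusted p = 0.0017). EPHX3 differed by -0.82 ± 0.19, and its call was lost without the first epidermis sample (adjusted p = 0.0909) or the second ST sample (0.0543).

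Axolotl epidermis contains mucus and other secretory cells. Of 21 genes for mucins and secretory products, 16 were higher in the epidermis and 3 higher in ST (median 5.38). UMOD, which in mammals is the kidney glycoprotein uromodulin, had 287 and 599 TPM in the epidermis and 0.87 and 2.75 TPM in ST (7.96 ± 0.49, adjusted p = 9.8e-07). AGR2-A, named after a protein needed for mucin folding, had 422 and 518 TPM against 8.28 and 12.1 TPM (5.53 ± 0.41, adjusted p = 3e-06), and its relative AGR3 had 58.3 and 77.4 TPM against 0.67 and 1.45 TPM. The epidermis samples lay above both ST samples in each case, which adds no evidence for genes picked by their adjusted p.

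The gel-forming mucin MUC5B had 7.6 and 27.6 TPM in the epidermis and 0.13 and 0.38 TPM in ST (5.46 ± 0.65, adjusted p = 7.5e-05). MUC5AC, its airway and stomach relative in mammals, was low, with 1.4 and 0.25 TPM against 0 and 0.09 TPM (adjusted p = 0.039, but 0.354 without the first epidermis sample, 0.225 without the first ST sample and 0.0563 without the second). OTOA, an otoancorin label, had 24.02 and 26.3 TPM in the epidermis and 0.14 and 0.76 TPM in ST. PIGR, the receptor that carries immunoglobulins across epithelia, went the other way, with 5.38 and 8.43 TPM in the epidermis and 29.1 and 31.9 TPM in ST (-2.16 ± 0.26, adjusted p = 9.5e-05). DMBT1, a mucosal defence glycoprotein, and PSCA, a surface antigen, were also higher in ST, and without the first epidermis sample only the PIGR call held (adjusted p of DMBT1 0.0885, of PSCA 0.321). PSCA was also lost without the second ST sample (0.239) and DMBT1 without the first (0.0724). FCGBP, a mucus-binding protein, was not called (0.94 and 1.54 TPM against 0.18 and 0.31 TPM, adjusted p = 0.16).

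**Figure D1:**
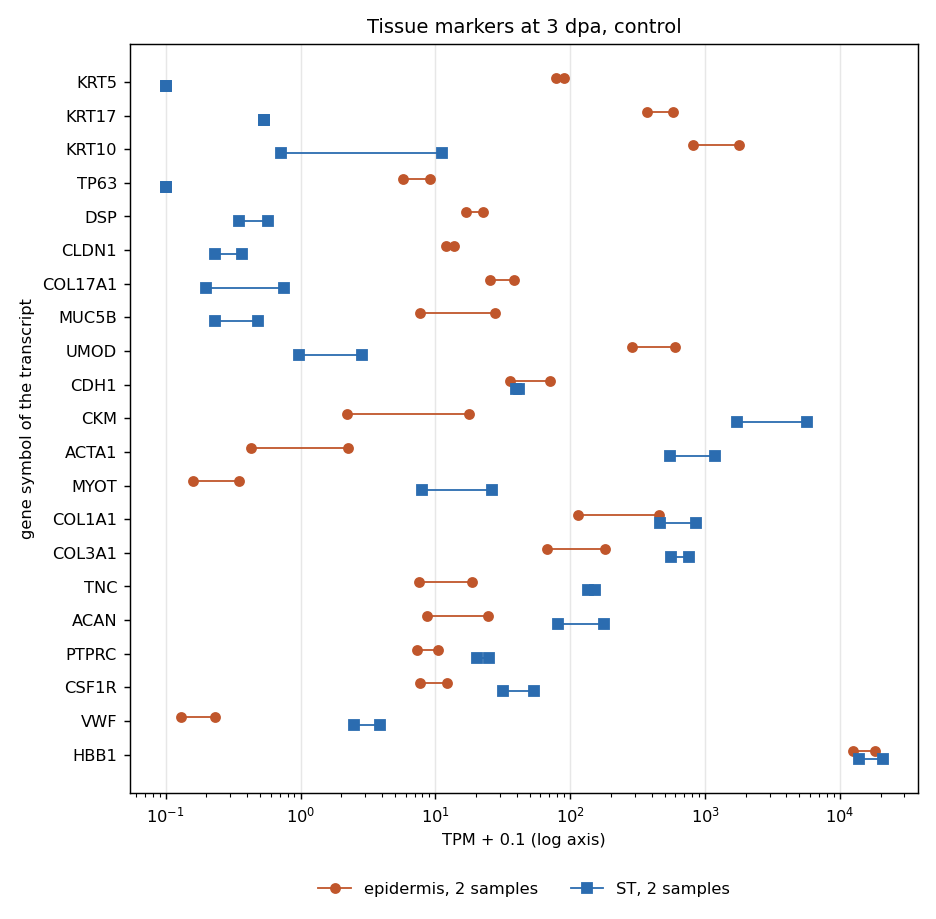
TPM of 21 marker transcripts at 3 dpa in control limbs, on a log axis after adding 0.1. Circles are the 2 epidermis samples and squares the 2 ST samples, joined by a line. Epidermal markers such as KRT5 and TP63 sit at the left edge in ST, where they were listed at 0, muscle markers such as CKM sit far to the right in ST, and CDH1 and HBB1 overlap.

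Skeletal muscle genes were the mirror image. Of 51 genes, 49 were higher in ST and 0 in the epidermis, with a median difference of -5.93. CKM, the muscle creatine kinase, had 5684 and 1713 TPM in ST and 2.1 and 17.8 TPM in the epidermis (-8.96 ± 1.09, adjusted p = 9.1e-05). ACTA1, the skeletal actin, had 1179 and 544 TPM in ST and 0.33 and 2.15 TPM in the epidermis (-9.67 ± 1.37, adjusted p = 0.00032). The thin filament genes TPM1, TNNT3 and TNNI2 and the fast myosin light chain MYL1 differed by -9.94, -8.96, -8.78 and -8.91. Both ST samples lay above both epidermis samples for 50 of the 51 genes. This count was not made over all symbols, so it is not read as a result about muscle genes.

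The 2 samples of each tissue were not alike in muscle RNA. The first ST sample was above the second for 50 of 51 muscle genes, and the second epidermis sample was above the first for 46 of 51. The second epidermis sample was also above the first in most other lists, as in 53 of 56 cell cycle genes. The exceptions were red blood cell genes (7 of 18) and ribosomal proteins (15 of 54). The median ratio factors were 0.741 and 1.006 for the epidermis and 1.021 and 1.165 for ST. MYOT, a protein of the sarcomere's Z-disc, had 26.1 and 7.81 TPM in ST and 0.06 and 0.25 TPM in the epidermis (-5.93 ± 0.50, adjusted p = 6.1e-06), and CAV3, a caveolin of muscle membranes, had 23 and 9.89 against 0.06 and 0.44 TPM. The giant sarcomere genes TTN and NEB were low even in ST. TTN had 12.3 and 2.62 TPM in ST and 0.01 and 0.44 TPM in the epidermis (adjusted p = 0.0018), and NEB 16.2 and 4.54 TPM against 0 and 0.58 TPM (adjusted p = 0.007, but 0.0948 without the first epidermis sample and 0.0807 without the first ST sample). For ST the summed muscle TPM came to 32634 and 12976. The epidermis had 93.6 and 275, whose mean was 0.808% of that of ST.

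A pair of further genes among the 10 most ST-biased carried other labels. ADIPOQ, labelled after the fat hormone adiponectin, had 135 and 52.4 TPM in ST and 0.02 and 0.5 TPM in the epidermis (-8.30 ± 1.17, adjusted p = 0.00029). HSPB1, a small heat shock protein, had 145 and 89.1 TPM against 0.04 and 1.01 TPM (-8.17 ± 0.95, adjusted p = 6.5e-05). In both, the first ST sample was above the second, as in the muscle genes, but the part of muscle in these values was not tested. Of the same group were ACTN3, the alpha-actinin of fast fibres (-8.49), and MYBPC2, the fast myosin-binding protein (-8.42).

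Many glycolysis genes were higher in ST. Of 16 glycolysis genes, 10 were higher in ST and 0 in the epidermis (median -1.92). GAPDH had 9404 and 4691 TPM in ST and 886 and 930.1 TPM in the epidermis (-2.87 ± 0.35, adjusted p = 8.8e-05). PKM, pyruvate kinase, had 1155 and 674 TPM against 44.5 and 60.4 TPM (-4.09 ± 0.27, adjusted p = 1.6e-06), and LDHA, lactate dehydrogenase A, 825 and 630.5 TPM against 184 and 229.5 TPM (-1.81 ± 0.19, adjusted p = 3.3e-05). PFKM, the muscle form of phosphofructokinase, had 54.8 and 25.4 TPM in ST and 0.08 and 0.41 TPM in the epidermis (-6.95 ± 0.58). The first ST sample, which held more muscle RNA, was the higher one for GAPDH, PKM, LDHA and PFKM, and the part of muscle in these values was not tested.

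Mitochondrial respiration differed by less. The share called toward ST was 39.7%, against 31.0% over all symbols, whose median was -0.48. With rescaled TPM 895 of 3505 symbols were called toward ST. Of 73 genes, 29 were higher in ST and 0 in the epidermis (median -0.57), but only 6 with rescaled TPM, 8 without the first ST sample and 13 without the first epidermis sample. COX7A1, a cytochrome oxidase subunit of heart and skeletal muscle, had 153 and 206 TPM in ST and 4.54 and 19.7 TPM in the epidermis (-4.21 ± 0.45, adjusted p = 3.3e-05). CYC1, cytochrome c1, had 92 and 104 TPM against 34.9 and 52.97 TPM (-1.18 ± 0.21, adjusted p = 0.0016). The complex I subunits NDUFA5, NDUFB7 and NDUFV1 differed by -1.22, -1.21 and -1.04. COX4I1, a cytochrome oxidase subunit of most tissues, was not called (464 and 493 TPM in ST, 396 and 390.4 TPM in the epidermis, adjusted p = 0.52).

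The connective tissue matrix was higher in ST for part of its genes. Of 45 genes, 25 (55.6%) were higher in ST and 2 (4.4%) in the epidermis (median -1.73). Over all symbols the shares were 31.0% and 10.8%. COL3A1, a fibrillar collagen of loose connective tissue, had 556 and 762 TPM in ST and 66.6 and 182 TPM in the epidermis (-2.56 ± 0.44, adjusted p = 0.0013). TNC, tenascin C, a matrix protein of wounds and regenerates, had 135 and 152 TPM against 7.42 and 18.4 TPM (-3.60 ± 0.34, adjusted p = 1.2e-05). LOX, which crosslinks collagen, CTHRC1, a secreted collagen regulator, and TGFBI, a matrix protein induced by TGF-beta, differed by -3.27, -3.43 and -3.01. All of these had both ST samples above both epidermis samples. As most were picked by their adjusted p, this adds no evidence.

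Several of the most abundant matrix genes were not called. COL1A1 had 458 and 857 TPM in ST and 114 and 454 TPM in the epidermis (-1.46 ± 0.61, adjusted p = 0.16), and COL1A2 628 and 1054 TPM against 180.1 and 635 TPM (-1.27 ± 0.57, adjusted p = 0.2). The COL1A2 values overlapped, and for both genes the second epidermis sample held several times the level of the first. Without it both were called, with differences of -2.46 (adjusted p = 0.0208) for COL1A1 and -2.17 (adjusted p = 0.0267) for COL1A2. LUM, lumican, had 199.7 and 296 TPM in ST and 119 and 199 TPM in the epidermis (adjusted p = 0.28), and DCN, decorin, differed by -0.04 ± 0.25 (adjusted p = 1.0). COL14A1 and POSTN, periostin, were the 2 members higher in the epidermis. COL14A1, a fibril-associated collagen, had 0.45 and 0.77 against 0.01 and 0.03 TPM. POSTN had 188 and 300.1 TPM in the epidermis and 48.2 and 140.02 TPM in ST (adjusted p = 0.046), a call that was lost in 7 alternatives besides the fit of the 4 samples alone, among them the sum over its 7 transcripts (adjusted p = 0.125) and the fits without the first ST sample (0.387), the first epidermis sample (0.0654) or the second (0.236).

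Cartilage and basement membrane genes were called in both directions. The basement membrane and hemidesmosome shares were 10.5% toward the epidermis and 36.8% toward ST, near the 10.8% and 31.0% over all symbols. Those of cartilage were 7.1% and 42.9%. Of 14 cartilage genes, 6 were higher in ST and 1 in the epidermis, with 1 toward ST without the second ST sample and 3 without the first epidermis sample. ACAN, the cartilage proteoglycan aggrecan, had 81.01 and 177 TPM in ST and 8.61 and 24.4 TPM in the epidermis (-3.04 ± 0.64, adjusted p = 0.0059). Its call was lost without the first epidermis sample (difference -2.29) or the second ST sample (-2.47). COL2A1, the main cartilage collagen, had 0.47 and 0.61 TPM against 0.03 and 0.06 TPM (-2.14 ± 0.58, adjusted p = 0.027). This call was lost when any 1 of the 4 samples was left out (differences of -2.30 to -1.98). It was also lost with a pseudocount of 1 (adjusted p = 0.334). Summed over the transcripts of a symbol, both were called. ACAN then differed by -2.62 (5 transcripts, adjusted p = 9.9e-05) and COL2A1 by -3.07 (4 transcripts, adjusted p = 0.0026). SOX9, a transcription factor of cartilage and of some epithelia, was higher in the epidermis (2.29 and 2.7 against 0.87 and 1.48 TPM, adjusted p = 0.027, but 0.062 to 0.232 without the first ST sample or either epidermis sample). Of 19 basement membrane and hemidesmosome genes, 2 were higher in the epidermis and 7 in ST, of which there were 2 without the first epidermis sample, 4 without the first ST sample and 3 without the second. COL17A1, the hemidesmosome collagen of basal keratinocytes, had 25.3 and 38.4 TPM in the epidermis and 0.1 and 0.65 TPM in ST (6.33 ± 0.61, adjusted p = 1.4e-05). LAMB2, a laminin chain, had 6.81 and 3.8 TPM in ST and 0.3 and 0.49 TPM in the epidermis (-3.42 ± 0.36, adjusted p = 3.2e-05), and PXDN, the peroxidase that crosslinks collagen IV, 8.82 and 11.7 TPM against 0.9 and 2.6 TPM.

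Vessel and nerve genes were called in both directions. Of 12 endothelial genes, 6 were higher in ST and 1 in the epidermis, with 3 toward ST without the first epidermis sample or without the second ST sample. VWF, von Willebrand factor, had 3.75 and 2.38 TPM in ST and 0.13 and 0.03 TPM in the epidermis (-4.16 ± 0.60, adjusted p = 0.00035). MCAM, an adhesion molecule of vessels and other cells, was the exception with 73.02 and 95.7 TPM in the epidermis and 20.1 and 18.7 TPM in ST (2.1 ± 0.23, adjusted p = 4.6e-05). Of 10 Schwann cell and nerve genes, 4 were higher in ST and 2 in the epidermis. PMP2, a fatty acid-binding protein named from myelin, was higher in the epidermis (724 and 1303 against 283 and 277 TPM, 1.79 ± 0.30, adjusted p = 0.0012), as was the receptor ERBB3 at lower level (1.86 and 2.24 against 0.22 and 0.18 TPM).

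Few red blood cell genes were called. Of 18 genes, 2 were higher in ST and 0 in the epidermis (median -0.19). HBB1, a beta-globin, had 18282 and 12503 TPM in the epidermis and 13854 and 20672 TPM in ST (-0.16 ± 0.88, adjusted p = 0.98), and HBA 9700.4 and 5688 against 5148 and 6435 TPM (0.37 ± 1.18, adjusted p = 0.93). These ranges overlapped. SPTB and ANK1, membrane skeleton proteins of red cells and muscle, were the 2 called members, and the ANK1 call was lost with rescaled TPM (adjusted p = 0.0552) and without the first ST sample or either epidermis sample (0.0578 to 0.151).

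Leukocyte genes were higher in ST at 3 dpa. Of 40 genes, 33 were higher in ST and 2 in the epidermis (median -1.69), and 28 were higher in ST with rescaled TPM. PTPRC, the pan-leukocyte antigen CD45, had 20.2 and 25 TPM in ST and 7.23 and 10.4 TPM in the epidermis (-1.36 ± 0.22, adjusted p = 0.00078). CSF1R, the macrophage growth factor receptor, had 31.8 and 54.01 TPM against 7.62 and 12.01 TPM (-2.1 ± 0.26, adjusted p = 0.00012), and the myeloid transcription factor SPI1 23.5 and 33.5 TPM against 7.04 and 7.49 TPM (-1.94 ± 0.20, adjusted p = 2.8e-05). Both ST samples were above both epidermis samples for 36 of the 40. This count was not made over all symbols, so it is not read as a result about leukocyte genes.

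Among the other members, ITGB2, the shared chain of leukocyte integrins, had 35.9 and 49.2 TPM in ST and 4.5 and 7.4 TPM in the epidermis (-2.84 ± 0.25, adjusted p = 8.6e-06). C1QC, a complement chain made by macrophages, had 371 and 428 TPM against 105 and 98.5 TPM, and VSIG4, a complement receptor of resident macrophages, 35.1 and 32.4 TPM against 6.52 and 6.81 TPM. CYBA, a subunit of the phagocyte oxidase, had 69.4 and 71.3 TPM in ST and 18.3 and 23.1 TPM in the epidermis. IL1B, the inflammatory cytokine, was higher in the epidermis (55.1 and 47.8 against 1.1 and 1.17 TPM, 5.38 ± 0.43, adjusted p = 4.7e-06), with a smaller difference of 2.97 when its 2 transcripts were summed. The CD163 transcript, labelled after a macrophage scavenger receptor, was so too (13.6 and 13.7 against 0.3 and 0.83 TPM, adjusted p = 2.4e-05), but the sum over its 3 transcripts was not called (difference 0.08, adjusted p = 0.962).

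The leukocyte difference was not the same at 0 dpa, where its direction depended on the scaling. Of the 40 leukocyte genes, 18 were higher in the epidermis at 0 dpa and 1 in ST, with a median difference of 0.67, but with rescaled TPM 5 were higher in the epidermis and 7 in ST (median -0.05). Of all 3505 symbols, 1139 were higher in the epidermis at 0 dpa and 652 in ST (median 0.48). With rescaled TPM these were 632 and 1016 (median -0.14). The change of the tissue difference between 0 and 3 dpa was negative and called for 34 of 40 members and positive for 1, and for 19 and 1 with rescaled TPM. Over all transcripts this change was called for 6503, or 6.08%, of which 5761 (5.38%) were negative. Over symbols 31.1% were called, 5.91% positive and 25.2% negative, and with rescaled TPM 541 of 3505 were positive and 323 negative. MPEG1, perforin-2 of macrophages, had 19.99 and 25.2 TPM in the epidermis and 2.14 and 3.08 TPM in ST at 0 dpa, and at 3 dpa 21.7 and 29.3 TPM in the epidermis against 46.6 and 48.8 TPM in ST (change -4.0 ± 0.34, adjusted p = 9.1e-05). At 3 dpa alone the MPEG1 difference of -0.92 ± 0.24 was called (adjusted p = 0.023) but not with rescaled TPM (adjusted p = 0.241), without the first epidermis sample (0.177) or without either ST sample (0.083 and 0.0986). LCP2, an adaptor of immune receptor signalling, had 40.2 and 51.2 TPM in the epidermis against 15.3 and 15.04 TPM in ST at 0 dpa, and 44.7 and 38.2 against 75.6 and 103 TPM at 3 dpa (change -2.67 ± 0.26, adjusted p = 0.00022). In ST, both genes were higher in both samples at 3 dpa than in both at 0 dpa, whereas the epidermis samples of the 2 days lay close together.

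**Figure D2:**
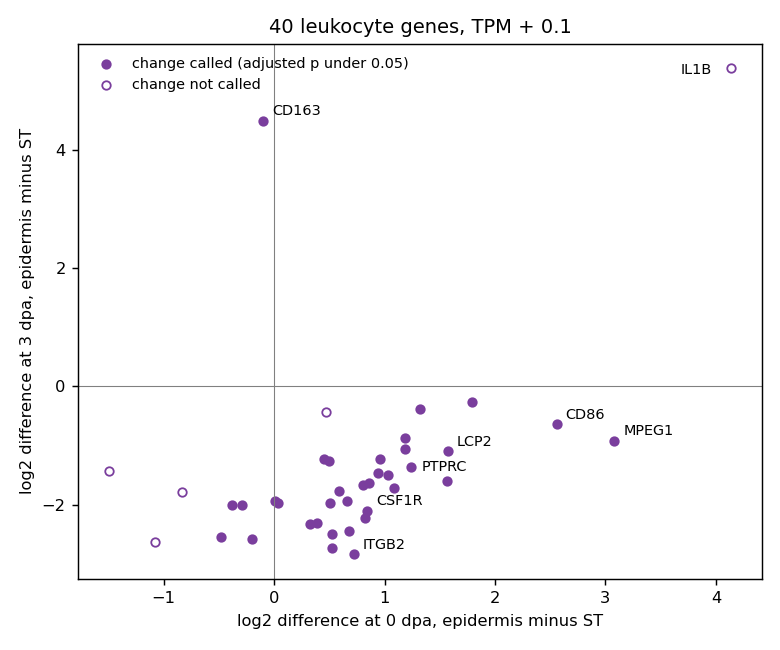
Each point is 1 of 40 leukocyte genes, with its log2 difference (epidermis minus ST, TPM + 0.1) at 0 dpa on the x axis and at 3 dpa on the y axis. Filled points had a called change between the days. Most points lie below 0 at 3 dpa, with medians of 0.67 at 0 dpa (-0.05 with rescaled TPM) and -1.69 at 3 dpa (-1.37 with rescaled TPM), and IL1B and CD163 lie above 0 at 3 dpa.

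WNT ligands and their secreted inhibitors were divided between the tissues. WNT proteins bind Frizzled receptors, and secreted antagonists such as WIF1, DKK1 and the SFRPs limit them. Of 30 WNT pathway genes, 15 were higher in ST and 3 in the epidermis (median -1.39). Without the first epidermis sample these counts were 8 and 7, and without the second ST sample 9 were higher in ST. WNT-5B, a noncanonical ligand, had 9.26 and 7.27 TPM in ST and 0.21 and 0.38 TPM in the epidermis (-4.43 ± 0.32, adjusted p = 3e-06), and WNT-5A 3.16 and 3.84 TPM against 0.62 and 1.42 TPM (-1.78 ± 0.38, adjusted p = 0.0064, but 0.0768 without the first epidermis sample and 0.0506 without the second ST sample). DKK1, which blocks the WNT co-receptor, had 7.83 and 18.6 TPM against 0.52 and 0.43 TPM (-4.41 ± 0.42, adjusted p = 1.4e-05). SFRP4 and APCDD1L, both named as WNT inhibitors or after one, differed by -3.11 and -3.23.

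The 3 members called higher in the epidermis made up a share near that of any symbol. WIF1, a secreted inhibitor, had 3.04 and 1.72 TPM in the epidermis and 0.15 and 0 TPM in ST (3.92 ± 0.60, adjusted p = 0.00055). WNT11, a noncanonical ligand, had 1.89 and 10.2 TPM against 0.79 and 1.04 TPM (2.17 ± 0.52, adjusted p = 0.013, but 0.0901 without the first ST sample). SOSTDC1, an inhibitor of WNT and BMP signals, had 0.98 and 4.59 TPM against 0.35 and 0.56 TPM, with an adjusted p of 0.031 that became 0.268 without the second epidermis sample, 0.174 without the first ST sample and 0.0613 without the second. For WNT11 and SOSTDC1 the second epidermis sample was several times the first.

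Growth factors that signal through receptor tyrosine kinases also came from both sides. Of 25 FGF, EGF and HGF pathway genes, 10 were higher in ST and 5 in the epidermis. HGF, the mesenchymal ligand of the MET receptor, had 4.19 and 5.95 TPM in ST and 0.34 and 0.7 TPM in the epidermis (-3.10 ± 0.36, adjusted p = 6.6e-05), and FGF16 5.3 and 5.98 TPM against 0 and 0.57 TPM (-4.47 ± 0.62, adjusted p = 0.00027). AREG, an EGF receptor ligand, was on the epidermal side with 4.8 and 12.4 TPM in the epidermis and 0.55 and 0.08 TPM in ST (4.52 ± 0.71, adjusted p = 0.00073). ERBB2, a receptor of the EGF family, had 2.73 and 3.61 TPM in the epidermis and 0.97 and 1.09 TPM in ST, and the phosphatase DUSP1, a feedback inhibitor of MAP kinases, 11.5 and 19.5 against 4.12 and 4.24 TPM. ERRFI1, an inhibitor of EGF receptors, had 16.5 and 14.4 TPM in ST and 2.36 and 3.53 TPM in the epidermis (-2.38 ± 0.28, adjusted p = 6.3e-05), and at 0 dpa 1.06 and 0.78 TPM in ST against 3.46 and 6.65 TPM in the epidermis (change -4.66 ± 0.39, adjusted p = 8.2e-05). FGF8, a ligand of the later blastema, was listed at 0 in all 4 samples.

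Several TGF-beta family ligands were higher in ST. Of 23 BMP and TGF-beta pathway genes, 10 (43.5%) were higher in ST and 1 (4.3%) in the epidermis (median -1.10). Over all symbols the shares were 31.0% and 10.8%. TGFB1, a ligand that drives matrix production, had 33.1 and 32.6 TPM in ST and 2.02 and 2.76 TPM in the epidermis (-3.74 ± 0.25, adjusted p = 1.7e-06). INHBA, the activin A subunit, had 15.6 and 12.6 TPM against 0.69 and 0.73 TPM (-4.12 ± 0.29, adjusted p = 2.2e-06), and TGFB2 0.74 and 1.07 TPM against 0.02 and 0.03 TPM (-2.99 ± 0.40, adjusted p = 0.00018). RGMA, a BMP co-receptor, differed by -1.67. BAMBI, a decoy receptor of the family, was the 1 member higher in the epidermis (6.03 and 4.65 against 1.76 and 3.6 TPM, adjusted p = 0.029, but 0.278 without the first ST sample and 0.18 without the first epidermis sample). BMP2 was below 1 TPM in all 4 samples and not called.

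NOTCH and Hedgehog genes were called in both directions. Of 13 genes, 5 (38.5%) were higher in the epidermis and 2 (15.4%) in ST (median -0.01). Over all symbols the shares were 10.8% and 31.0%. HES5, a target gene of NOTCH signalling, had 6.39 and 7.26 TPM in the epidermis and 0 and 0.15 TPM in ST (5.45 ± 0.60, adjusted p = 4.3e-05). The ligand JAG1 had 6.56 and 8.74 TPM in the epidermis and 1.65 and 2.35 TPM in ST (1.89 ± 0.25, adjusted p = 0.00021), and the ligand DLL1 1.52 and 1.27 against 0.34 and 0.46 TPM. NRARP, a feedback regulator of the pathway, had 2.59 and 3.59 against 1.08 and 1.17 TPM. HEY1, another NOTCH target, was higher in ST (2.97 and 2.09 against 0.69 and 0.76 TPM, -1.65 ± 0.27, adjusted p = 0.0011), as was GLI2, a transcription factor of the Hedgehog pathway (0.73 and 1.14 against 0.22 and 0.23 TPM, adjusted p = 0.0062, but 0.0668 without the second ST sample). NOTCH1 was not called (2.04 and 2.27 against 1.29 and 1.4 TPM, adjusted p = 0.18).

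**Figure D3:**
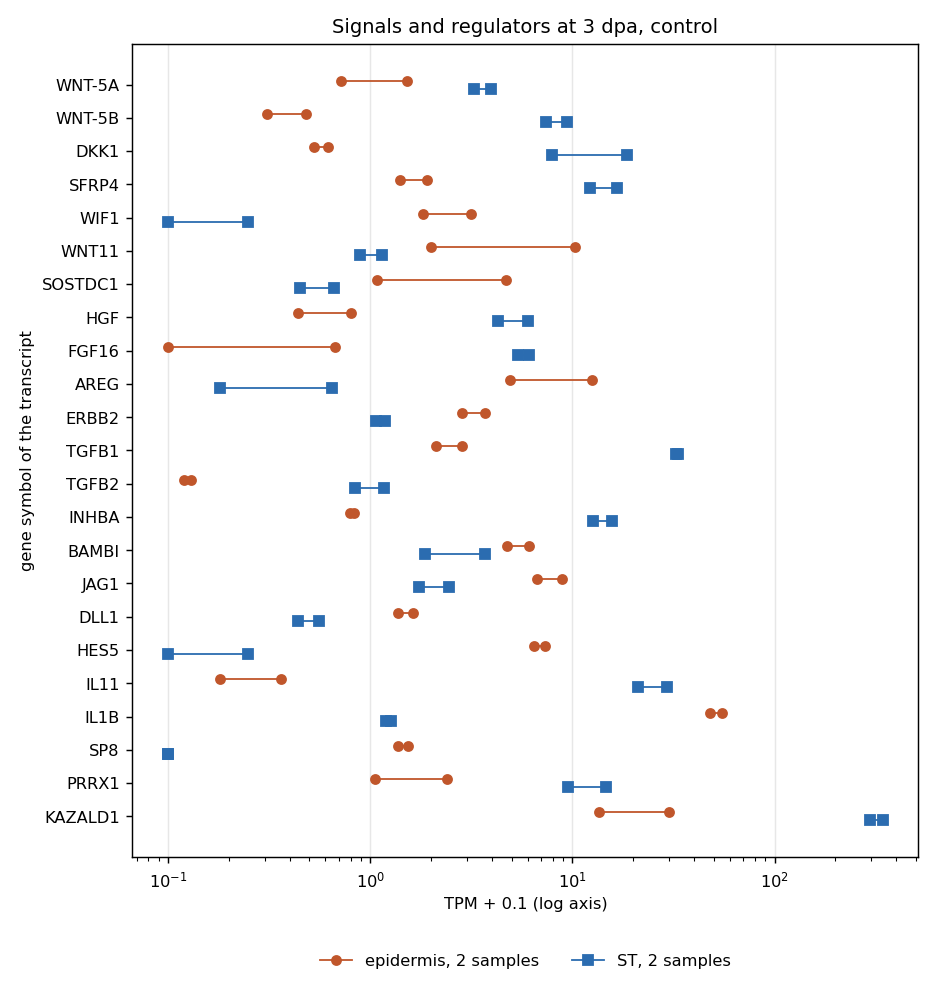
TPM of 23 signalling genes and regulators at 3 dpa in control limbs, on a log axis after adding 0.1. Circles are the 2 epidermis samples and squares the 2 ST samples, joined by a line. TGFB1, INHBA, WNT-5B, DKK1, HGF and IL11 lie to the right in ST, and WIF1, AREG, HES5, JAG1, IL1B and SP8 lie to the right in the epidermis.

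Matrix proteases and their inhibitors were higher in ST where they differed. Of 34 genes, 18 (52.9%) were higher in ST and 0 in the epidermis, although 2 were higher in the epidermis with rescaled TPM. Over all symbols 31.0% were higher in ST. MMP14, a membrane-bound metalloprotease, had 38.03 and 43.9 TPM in ST and 4.28 and 7.33 TPM in the epidermis (-2.84 ± 0.30, adjusted p = 2.8e-05), and ADAMTS4, an aggrecanase, 7.46 and 10.4 TPM against 0.41 and 0.9 TPM (-3.64 ± 0.41, adjusted p = 4.8e-05). MMP9, a gelatinase, had 55.1 and 174 TPM against 15.4 and 26.2 TPM (-2.28 ± 0.43, adjusted p = 0.0027). Each of these had no overlap between the tissues, which was not set against the share over all symbols. CTSB, a lysosomal protease, was abundant in both, with 483 and 584 TPM in ST and 183 and 214 TPM in the epidermis (-1.42 ± 0.17, adjusted p = 8.6e-05). The collagenase MMP13 had 37.8 and 24.4 TPM in ST and 5.14 and 13.1 TPM in the epidermis, a call (adjusted p = 0.031) that was lost with rescaled TPM (0.0857), without the first epidermis sample (0.278) and without either ST sample (0.0522 to 0.19). MMP18, named after a Xenopus collagenase, overlapped between the tissues (21.6 and 39.1 against 10.2 and 33.1 TPM, adjusted p = 0.53).

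Several transcription factors of limb mesenchyme were higher in ST. Of 32 limb patterning and mesenchymal genes, 14 (43.75%) were higher in ST and 2 (6.25%) in the epidermis (median -1.47). Over all symbols the shares were 31.0% and 10.8%. PRRX1, a homeobox factor of limb connective tissue, had 9.39 and 14.6 TPM in ST and 0.96 and 2.29 TPM in the epidermis (-2.89 ± 0.38, adjusted p = 0.00017), and SNAI1, a regulator of mesenchymal state, 28.5 and 27.7 TPM against 2.4 and 3.83 TPM (-3.17 ± 0.31, adjusted p = 1.7e-05). HOXA11, which patterns the forearm, had 1.28 and 1.3 TPM against 0 and 0.21 TPM, and MAB21L2 2.26 and 1.8 against 0.11 and 0.07 TPM. KAZALD1, a secreted protein known from the axolotl blastema and kept in this list, was the most abundant, with 343 and 297 TPM in ST and 13.4 and 30.03 TPM in the epidermis (-3.99 ± 0.34, adjusted p = 6.2e-06). SP8, a factor of the limb bud ectoderm, had 1.27 and 1.44 TPM in the epidermis and was listed at 0 in both ST samples (adjusted p = 0.00013). BHLHA9, known from limb bud ectoderm in mammals, had 0.21 and 0.37 TPM and was listed at 0 in ST as well (adjusted p = 0.0025).

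Stress and wound response genes were found on both sides. Of 43 genes, 8 (18.6%) were higher in the epidermis and 14 (32.6%) in ST. Over all symbols the shares were 10.8% and 31.0%, so the ST share was near that of any symbol. S100A2, a calcium-binding protein of epidermis, had 7326 and 8193 TPM in the epidermis and 13.1 and 74.3 TPM in ST (7.95 ± 0.70, adjusted p = 8.3e-06), and S100A11 957 and 752 TPM against 3.55 and 9.56 TPM (7.16 ± 0.66, adjusted p = 1.1e-05). HAS1, a hyaluronan synthase, had 6.52 and 25.7 TPM in the epidermis and 0 and 0.14 TPM in ST (6.40 ± 0.64, adjusted p = 2.1e-05), while HAS2 was higher in ST (-3.08). IL11, a cytokine of injured tissue, was far higher in ST, with 21.1 and 29.4 TPM in ST and 0.08 and 0.26 TPM in the epidermis (-6.62 ± 0.65, adjusted p = 1.8e-05). HMOX1, heme oxygenase, had 326 and 413 TPM in ST and 46.5 and 55.1 TPM in the epidermis (-2.85 ± 0.23, adjusted p = 4.9e-06), and STC1, a secreted hormone induced by hypoxia, 5.46 and 6.86 TPM against 0.15 and 0.35 TPM (-4.21 ± 0.47). The fibronectin receptor chain ITGA5 differed by -3.17. PTGS2, the inducible prostaglandin synthase, was called (5.44 and 20.8 against 3.32 and 3.23 TPM, adjusted p = 0.027) but not without the second epidermis sample (0.21) or either ST sample (0.104).

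Few cell cycle and ribosomal genes were called. Of 56 cell cycle genes, 1 was higher in the epidermis and 4 in ST (median -0.28), counts that became 5 and 1 without the first epidermis sample and 0 and 12 without the second. Without the second ST sample 0 were higher in ST. PCNA, the sliding clamp of DNA replication, had 78.2 and 161 TPM in the epidermis and 124 and 101 TPM in ST (0.0 ± 0.35, adjusted p = 1.0), and TOP2A, topoisomerase II, 3.1 and 9.21 against 9.18 and 13.3 TPM (-1.03 ± 0.54, adjusted p = 0.28). GMNN, the replication inhibitor geminin, was higher in the epidermis (38.98 and 32.5 against 10.7 and 11.4 TPM, 1.68 ± 0.27, adjusted p = 0.00087). Of 54 ribosomal protein genes, 1 was called in each direction (median 0.21). The epidermal call, RPL23, had 2207 and 3075 TPM in the epidermis and was listed at 0 in both ST samples (adjusted p = 0.0031), and RPL28, called toward ST, had 1.37 and 0.51 TPM in ST and was listed at 0 in the epidermis (adjusted p = 0.034, but 0.111 to 0.212 without the first ST sample or either epidermis sample). Ribosomal proteins are made by every cell, so these zeros say only that the transcripts were listed at 0. RPLP0 had 2536 and 2086 TPM in the epidermis and 1882 and 1834 TPM in ST (adjusted p = 0.56).

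**Figure D4:**
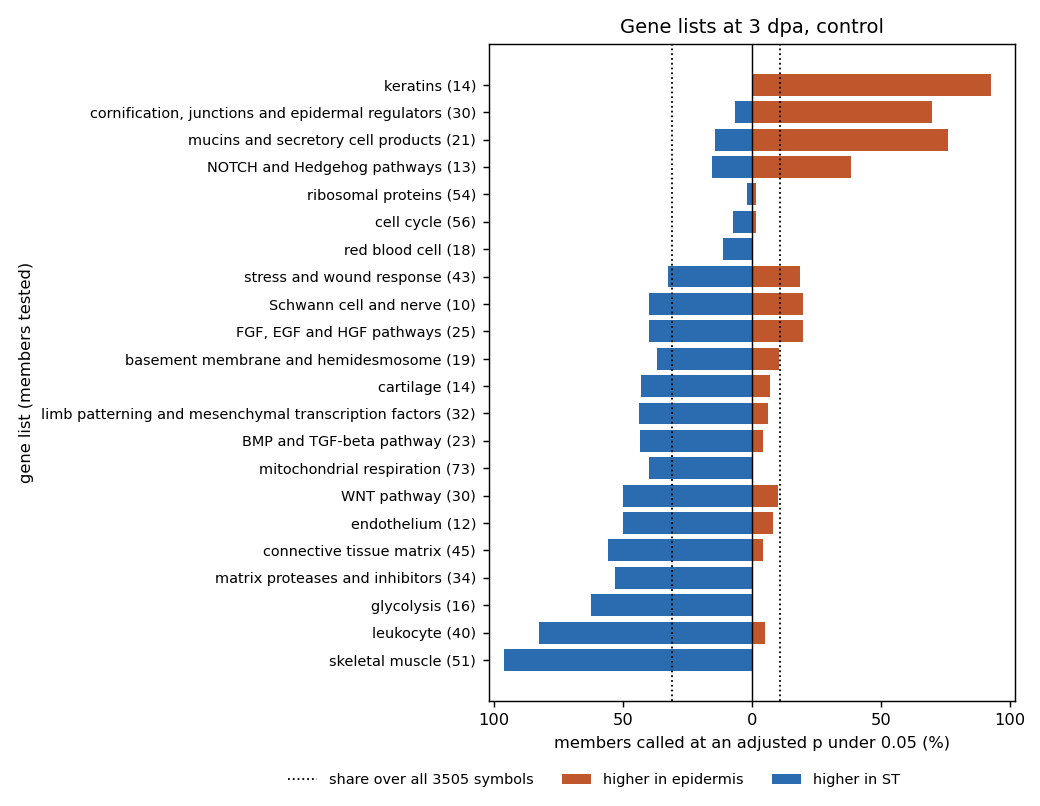
Share of the members of each gene list that were called at an adjusted p under 0.05, toward the epidermis to the right and toward ST to the left, with the number of members tested in parentheses. Dotted lines mark the shares over all 3505 symbols, 10.8% and 31.0%. Keratins, mucins and junction genes extend furthest to the right, and muscle and leukocyte genes furthest to the left.

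Part of the tissue difference was shared between days. Of the 5599 transcripts higher in the epidermis at 3 dpa, 4515 (80.6%) were also called higher at 0 dpa, which were 28.4% of those called at 0 dpa. Of the 7339 higher in ST at 3 dpa, 2415 (32.9%) were called so at 0 dpa, which were 53.4% of the calls there, and 686 were called the other way. At 8 dpa 6.87% of all transcripts were called higher in the epidermis and 7.5% higher in ST. With 8 dpa, 4340 epidermal transcripts were shared (77.5% of those at 3 dpa and 59.1% of those at 8 dpa), and 3932 ST transcripts (53.6% and 49.0%). At 0 dpa 14.8% of all transcripts were called higher in the epidermis and 4.23% higher in ST, or 15871 and 4523 transcripts, against 9036 and 8882 with rescaled TPM. The shared counts above use the TPM as deposited and were not recomputed with rescaled TPM, and the difference between the shares was not tested.

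Scaling bore on the comparison with 0 dpa. The median change of the tissue difference between 0 and 3 dpa over all transcripts was -0.56, and 11.4% of the called changes were positive. With rescaled TPM the median change was 0.01, and 64.8% of 3223 called changes were positive. The ST samples at 0 dpa had the lowest median ratio factors of the series (0.672 and 0.515). Their summed muscle TPM were 40687 and 68876, and their summed red blood cell TPM 185443 and 11469. The part of either in these factors was not tested.

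The counts of several groups differed between the scalings. Of all symbols, 5.91% had a called positive change from 0 to 3 dpa, and with rescaled TPM 541 of 3505 had. The keratin difference had a median of 4.25 at 0 dpa and 7.17 at 3 dpa, and 3 keratins had a called positive change (6 with rescaled TPM). KRT17 had 55.8 and 43.05 TPM in the epidermis and 1.81 and 4.09 TPM in ST at 0 dpa, so that from 0 to 3 dpa it was higher in the epidermis and lower in ST (change 5.62 ± 0.97, adjusted p = 0.005). Mitochondrial genes had a median difference of -1.75 at 0 dpa, and 39 of 73 had a called positive change (66 with rescaled TPM). PLAU, the urokinase that activates plasmin, had 45.7 and 38.4 TPM in the epidermis and 3.22 and 4.29 TPM in ST at 0 dpa, but 21.2 and 21.6 against 38.9 and 40.1 TPM at 3 dpa, so the tissue with the higher level switched (change -4.34 ± 0.22, adjusted p = 1.2e-06). At 3 dpa alone the PLAU call (adjusted p = 0.0017) was lost with rescaled TPM (0.147). Its receptor PLAUR had 5.87 and 4.94 TPM in the epidermis against 1.68 and 1.91 TPM in ST at 0 dpa, and 17.3 and 23.4 against 70.99 and 55.1 TPM at 3 dpa (change -3.17 ± 0.29, adjusted p = 0.00014). SLC16A3, a lactate exporter, had 13.9 and 7.32 TPM in ST at 0 dpa and under 0.2 TPM in all 4 samples at 3 dpa (change 5.17 ± 0.52, adjusted p = 0.00023).

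Between 3 and 8 dpa few changes were called. The tissue difference changed for 130 transcripts (0.121%, of which 0.0785% positive and 0.043% negative), with 9763 at an unadjusted p under 0.05, and over symbols for 1.23% (0.942% positive, 0.285% negative). In the lists it was called for 4 members. Of these, 3 were leukocyte genes of 40 and 1 a cartilage gene of 14. VSIG4 had 33.95 and 29.6 TPM in the epidermis and 30.8 and 33.2 TPM in ST at 8 dpa, where the tissues no longer stood apart (change 2.31 ± 0.30, adjusted p = 0.021). MPEG1 and CD86, a costimulatory molecule, changed by 2.28 ± 0.34 and 2.60 ± 0.44 (adjusted p = 0.029 and 0.045), both with the epidermis at 8 dpa above ST. COL9A1, a cartilage collagen, had 0.11 and 0.13 TPM in ST at 3 dpa and 11.9 and 13.1 TPM at 8 dpa (change -5.91 ± 1.0, adjusted p = 0.045). All 4 calls were lost with rescaled TPM (adjusted p of 0.0591 to 0.104).

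**Figure D5:**
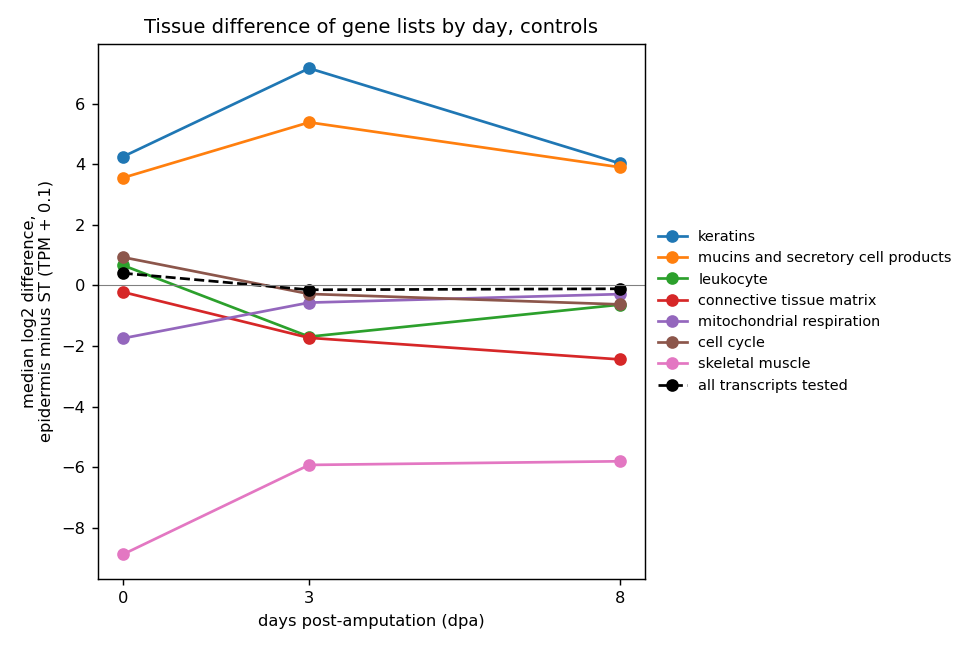
Median log2 difference (epidermis minus ST, TPM + 0.1) of 7 gene lists and of all transcripts tested, in controls at 0, 3 and 8 dpa, from 2 samples per tissue and day. The keratin median is highest at 3 dpa (7.17), and the leukocyte median goes from 0.67 at 0 dpa (-0.05 with rescaled TPM) to -1.69 at 3 dpa and -0.64 at 8 dpa.

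Between DMSO and MS-275 the tissue difference at 3 dpa changed for 343 transcripts (0.32%), 99 upward (0.0925%) and 244 downward (0.228%), with 10987 at an unadjusted p under 0.05. Over symbols 1.94% were called, 0.656% positive and 1.28% negative. The tissue difference within MS-275 limbs at 3 dpa was called for 9.82% of all transcripts (3.92% higher in the epidermis, 5.91% in ST). Among the lists, 3 of 14 keratins, 6 of 30 cornification and junction genes and 2 of 21 secretory genes had a smaller difference with MS-275. KRT17 had 564 and 329 TPM in the epidermis and 49.1 and 289 TPM in ST with MS-275 (change -7.89 ± 0.97, adjusted p = 0.0069), and CLDN1 16.8 and 12.9 against 7.64 and 7.75 TPM (change -4.54 ± 0.37, adjusted p = 0.00044). DSP changed by -3.11 ± 0.46 (adjusted p = 0.017, but 0.0521 without the first ST control and 0.0558 without the second epidermis control). For KRT17, CLDN1 and DSP both MS-275 samples of ST were above both controls. The summed keratin TPM of ST were 1360.3 and 4237 with MS-275 and 35.0 and 156 in controls, and the part of epidermal RNA in the ST samples in these changes was not tested.

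For UMOD the MS-275 samples of the epidermis were both below the controls, with 29.5 and 16.4 TPM and 287 and 599 TPM in turn (change -5.37 ± 0.70, adjusted p = 0.01). PKM had 116 and 113 TPM in the epidermis and 274 and 299 TPM in ST with MS-275 (change 2.77 ± 0.38, adjusted p = 0.014), and LDHA 391 and 373 against 346 and 363 TPM (change 1.92 ± 0.27, adjusted p = 0.016). For both, the epidermis was higher and ST lower with MS-275 than in controls. The summed muscle TPM of ST were 10627 and 8202 with MS-275, below those of the controls, and the part of muscle in these 2 changes was not tested.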

How the data were processed

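RNA was sequenced from the epidermis and ST of axolotl forelimbs in 20 samples, 2 for each tissue, day and treatment, grouped by their labels. The authors aligned trimmed reads (cutadapt) to an axolotl transcriptome with Bowtie2, estimated abundance with RSEM, and deposited TPM per transcript, which are relative within a sample and hold no depth. Here log2(TPM + 0.1) of transcripts above 0 in at least 5 of 20 samples was fitted in limma 3.58.1 (R 4.3.3) with 10 group means and a mean-variance trend. Two-sided p-values were adjusted by the Benjamini-Hochberg method across every transcript tested. Changes of the tissue difference (0 to 3 dpa, 3 to 8 dpa, MS-275 against DMSO) were interaction contrasts of that fit. An exact permutation test of 2 against 2 samples cannot go below a p of 0.333, so the calls rest on the spread pooled over all groups.

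Symbols came from shortened supplementary lists of the study, and the transcript with the highest mean TPM stood for a symbol. Where several transcripts share a symbol, reads may be split among them. Genes were named by rule. The first were the 10 largest called differences each way among symbols whose samples did not overlap between the tissues. The defining members of each list were added. So were up to 4 members of a list with the smallest adjusted p each way, and up to 6 list members per change. KRT8, DCN, HAS2, ERH and CSRP1 were named after their values were seen. The samples, lists and members were chosen with earlier results of these data known. A named gene that is withheld is not reported here. No sequences are shown, as no sequence table was used here.

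The fit was tested on simulated data for the comparison at 3 dpa over 107026 transcripts. It called 3 of 66 changed by 1 on the log2 scale, 27 of 67 changed by 2 and 47 of 67 changed by 3. There were 7 false calls. Only these transcripts were changed, all with a mean TPM of at least 1, whereas 12938 were called in the data. The adjusted p depends on how many transcripts differ, so these rates need not hold for the data. Alternatives were TPM rescaled by median ratios, TPM summed over a symbol, a mean TPM of at least 1, a pseudocount of 1, no trend, no filter, the 4 samples alone, a replicate block, and leaving out each of the 4 samples.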

Additional observations from a re-analysis of the deposited data

Results flagged for a closer look

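The tissue difference was not the same at 0 and 3 dpa for 6503 transcripts by the test of the change itself. The named list members with the smallest adjusted p were ERRFI1 (-4.66 ± 0.39), PLAU (-4.34 ± 0.22), MPEG1 (-4.0 ± 0.34), PLAUR (-3.17 ± 0.29), LCP2 (-2.67 ± 0.26) and SLC16A3 (5.17 ± 0.52). All but SLC16A3 changed toward ST on the log2 scale. SLC16A3 went from higher in ST at 0 dpa to trace levels in both tissues at 3 dpa.

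Between 3 and 8 dpa the test of the change called 130 transcripts, among them CD86 (2.60 ± 0.44), VSIG4 (2.31 ± 0.30) and MPEG1 (2.28 ± 0.34) toward the epidermis and COL9A1 (-5.91 ± 1.0) toward ST. These 4 calls were lost with rescaled TPM, without the trend and with the replicate block.

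With MS-275 the tissue difference at 3 dpa changed for 343 transcripts. KRT17 (-7.89 ± 0.97), UMOD (-5.37 ± 0.70), CLDN1 (-4.54 ± 0.37) and DSP (-3.11 ± 0.46) had smaller differences, and PKM (2.77 ± 0.38) and LDHA (1.92 ± 0.27) moved toward the epidermis. The calls of KRT17, PKM and LDHA were lost with the replicate block, that of LDHA also without the trend, and that of DSP with a pseudocount of 1, without the first ST control and without the second epidermis control.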

How the results depend on the processing

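Of the 171 named genes, none that was called in the main fit or in the alternative changed direction at 3 dpa. For genes called in neither fit, changes of direction were not counted. The fit of the 4 samples alone called 5 transcripts higher in the epidermis and 0 higher in ST, with 2 residual degrees of freedom by construction. The causes of the other movements were not tested. Leaving out 1 of the 4 samples gave 3826 to 5091 transcripts higher in the epidermis and 3947 to 7545 higher in ST. The lowest ST counts came without the first epidermis sample (3947) and the first ST sample (4774). For the change from 0 to 3 dpa the counts were 604 to 874 positive and 2937 to 8545 negative, with 2937 without the first epidermis sample and 2963 without the second ST sample. For 3 to 8 dpa they were 36 to 207 positive and 32 to 344 negative, and for MS-275 56 to 262 positive and 82 to 872 negative, each highest without the second ST sample.

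With rescaled TPM the change from 0 to 3 dpa was positive for 2087 and negative for 1136 transcripts, and that from 3 to 8 dpa for 37 and 28. A pseudocount of 1 gave 1133 positive changes from 0 to 3 dpa, and 652 positive and 406 negative from 3 to 8 dpa. Summing over symbols took the difference of IL1B to 2.97, KRT42 to 6.50, UMOD to 7.06 and WIF1 to 5.18, and gave 30 negative changes from 3 to 8 dpa. A mean TPM of at least 1 gave 199 positive changes from 3 to 8 dpa, and 213 positive and 530 negative with MS-275. Without the trend there were 14 and 24 from 3 to 8 dpa and 54 and 148 with MS-275, and without the filter 247 and 180, and 242 and 402.

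The correlation of same-numbered deviations of the tissues was 0.003 at 3 dpa, which cannot show whether the samples share animals. The paper gives a single count of animals that covers both tissues. By that count the epidermis and ST samples of a condition came from the same animals. Which epidermis sample matches which ST sample is not stated. The main fit treated the tissues as independent. With the replicate block 5281 transcripts were higher in the epidermis and 6755 in ST, the change from 3 to 8 dpa was called for 4 and 6, and that with MS-275 for 34 and 140. COL1A1 was called with the block (adjusted p = 0.0428). Depth is unknown from TPM, so counting error of low transcripts was not estimated.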

Other observations

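The transcripts of ERH and CSRP1 were at or near 0 TPM in both ST controls of 3 dpa but not in the ST controls of 0 and 8 dpa or in ST with MS-275 at 3 dpa. That of ERH, labelled after a conserved nuclear protein, had 87.2 and 229.5 TPM in the epidermis and 0.72 and 0.64 TPM in ST at 3 dpa, while ST had 110.2 and 79.3 TPM at 0 dpa, 53.9 and 64.5 TPM at 8 dpa and 182 and 122 TPM with MS-275 at 3 dpa. Its tissue difference changed by 7.56 ± 0.62 from 0 to 3 dpa (adjusted p = 7.4e-05). That of CSRP1, labelled after a LIM protein of smooth muscle, had 11.1 and 13.2 TPM in the epidermis and was listed at 0 in both ST samples at 3 dpa, against 24.9 and 38.2 TPM in ST at 0 dpa, 69.3 and 63.5 TPM at 8 dpa and 42.5 and 19.5 TPM with MS-275 at 3 dpa. Both were chosen after their values were seen. RPL23, the symbol with the largest called difference at 3 dpa, had 2972 and 2974 TPM in the epidermis and 2212 and 0 TPM in ST at 0 dpa, and was listed at 0 in all 4 controls of 8 dpa. Summed over its 3 transcripts RPL23 had 2226 and 3119 TPM in the epidermis and 3.35 and 3.58 TPM in ST at 3 dpa.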
